A study of Rattus norvegicus with 12 samples.

Results

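Rims2, Scn1a, Cntn5, Cdh8, Slc4a10, Tph2, Elavl2 and Ntrk2, 8 genes best known from neurons, were read in wild-type NRK cells, a rat kidney line, and were nearly or wholly absent from 2 knockout lines made from them. They are 8 of the 20842 genes of the count table. They were selected by their fall in both knockouts against wild type, so that fall is given below as a description and no test is put on it. The cells were wild type (WT), VAMP7KO or ATG5KO, each untreated, kept in complete growth medium and labelled as epithelial, in 4 replicates each, which makes 12 libraries. Each replicate was 1 dish, and the spread between replicates is therefore that between dishes of 1 line. Both knockouts were made with CRISPR/Cas9 from a plasmid that also carries GFP, and each line grew from 1 sorted cell, so the effect of a deleted gene and the features of its clone cannot be told apart. VAMP7 is a vesicle SNARE that helps membranes fuse late in the endosomal and autophagic routes, and ATG5 is part of the conjugation machinery that builds autophagosomes.

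The products of the 8 genes act in separate steps of nerve cell function. RIMS2 holds synaptic vesicles at the release site, SCN1A is the pore of a voltage-gated sodium channel, and CNTN5 and CDH8 are adhesion proteins that help neurons find their partners. SLC4A10 moves bicarbonate with sodium, TPH2 makes the rate-limiting step of serotonin synthesis in the brain, ELAVL2 binds AU-rich RNA, and NTRK2 (TrkB) is the receptor of brain-derived neurotrophic factor. In non-neuronal cells many genes of this kind are held silent by REST, a repressor that binds a DNA element called RE1.

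Between 21090858 and 31525111 reads were counted per library, and 3 reads, taken here as the floor of a library, are worth 0.0952 to 0.142 CPM (reads per 1000000 counted). Vamp7, the gene targeted in VAMP7KO, stood at 111 ± 3.26 CPM in WT, 46.2 ± 5.17 in VAMP7KO and 128 ± 2.15 in ATG5KO (SD, n = 4 each). Its transcript was thus lower but still read in VAMP7KO. The identifier of Atg5 was not known here. Libraries of each genotype split into replicates 1 and 2 and replicates 3 and 4, a division that the labels do not name. Of the 5 marker lists, genes with a known identifier were 3 of 18 for neurons, 5 of 14 for glia, 7 of 16 for kidney epithelium, 10 of 15 for fibroblasts and 8 of 12 for muscle. The highest of each were Mapt, Cnp, Krt8, Col6a1 and Acta2. Keratin 8 of epithelia was read at 777 CPM in WT and collagen VI of fibroblasts, from Col6a1, at 2508 CPM. The other known markers of these lists were uneven in WT. Those of kidney epithelium ran from 0.187 (Lrp2) to 248 CPM (Aqp1), and those of fibroblasts from 0.0662 (Dcn) to 2466 CPM (Col6a2). No cell type is assigned from them. Cdh1 and Epcam, which define epithelia, had no known identifier here.

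Promoter sequence was at hand for 5 of the 8 genes from RefSeq (build GRCr8, 250 bases before to 50 after the annotated start), and none was read for Rims2, Scn1a or Ntrk2. The 3 printed below are shown because their genes behaved differently within WT. Cdh8 and Tph2 were lower in replicates 3 and 4 and Elavl2 was not. Capitals mark the left arm of RE1 (CAGCACC), its right arm (GGACAG), the GC box (GGGCGG) and the TATA box (TATAAA), searched on both strands.
Cdh8, chr19:5500216-5500515, plus strand: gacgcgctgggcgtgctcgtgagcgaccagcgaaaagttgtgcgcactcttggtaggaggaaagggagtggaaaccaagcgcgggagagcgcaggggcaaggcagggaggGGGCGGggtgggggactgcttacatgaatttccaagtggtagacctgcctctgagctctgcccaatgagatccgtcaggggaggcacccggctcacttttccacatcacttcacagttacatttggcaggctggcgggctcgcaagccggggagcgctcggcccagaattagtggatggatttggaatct
Tph2, chr7:52675590-52675889, minus strand: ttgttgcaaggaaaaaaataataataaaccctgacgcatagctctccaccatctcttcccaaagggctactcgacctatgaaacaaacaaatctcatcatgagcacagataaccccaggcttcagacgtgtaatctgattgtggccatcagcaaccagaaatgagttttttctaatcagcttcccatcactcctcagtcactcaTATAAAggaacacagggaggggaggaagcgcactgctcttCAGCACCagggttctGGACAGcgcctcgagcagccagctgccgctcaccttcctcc
Elavl2, chr5:111202238-111202537, minus strand: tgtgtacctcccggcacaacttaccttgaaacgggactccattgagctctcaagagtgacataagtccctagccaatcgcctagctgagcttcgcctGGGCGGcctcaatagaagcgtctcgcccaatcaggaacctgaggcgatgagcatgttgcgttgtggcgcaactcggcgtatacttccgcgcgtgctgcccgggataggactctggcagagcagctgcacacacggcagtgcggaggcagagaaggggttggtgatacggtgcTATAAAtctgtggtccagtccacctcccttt

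The Tph2 window held both arms of RE1, in order on the gene's own strand. The left arm began 6 bases before the start, the right arm began at base 10 after it, and 8 bases lay between them. Arms in this order within 0 to 11 bases of each other were found in 38 of 33469 RefSeq promoters, 0.114% of them, and arms 2 bases apart, the usual spacing, in 10. Taken alone, the left arm was found in 6.78% and the right arm in 21.7% of all promoters. Tph2 also had a TATA box 46 bases before its start, a motif that 14.2% of promoters hold. Cdh8 and Elavl2 each had 1 GC box (33.1% of promoters), at 140 and 153 bases before the start, and Elavl2 had a TATA box at base 20 after it. Slc4a10 held a TATA box on the opposite strand, and the window of Cntn5 held none of these motifs. The CREB element (TGACGTCA) was in none of the 5 windows and in 1.83% of all. CpG pairs numbered 0 in Cntn5, 7 in Tph2, 8 in Slc4a10, 18 in Cdh8 and 19 in Elavl2, against a median of 7 over all promoters. These matches are letters in a window and show no binding. Some motifs were in more than 1 window, but none was in all 5.

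In the WT libraries all 8 genes were read in all 4 replicates, and in the knockouts they gave 31 reads in all. Summed over the 8 genes, WT replicates 1 to 4 held 3871, 3459, 1602 and 1273 reads. The sums were 1, 0, 2 and 4 reads in VAMP7KO and 3, 10, 6 and 5 in ATG5KO. The lowest WT library was thus above every knockout library for the sum and for each gene taken alone. This is a description only, because the genes were selected by their fall in both knockouts. The share of all genes with no overlap between WT and knockout libraries was not counted. All 8 passed the filter on low counts, which they could do only through WT. Among the 11425 genes with at least 1 CPM in WT on average, 44 had 3 reads or fewer in every one of the 8 knockout libraries, and 7 of the 8 genes are among those 44. Ntrk2 is not, because its ATG5KO libraries held 3, 10, 4 and 4 reads. In bulk RNA, fewer cells that express a gene and less RNA of it per cell cannot be told apart.

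**Figure D1:**
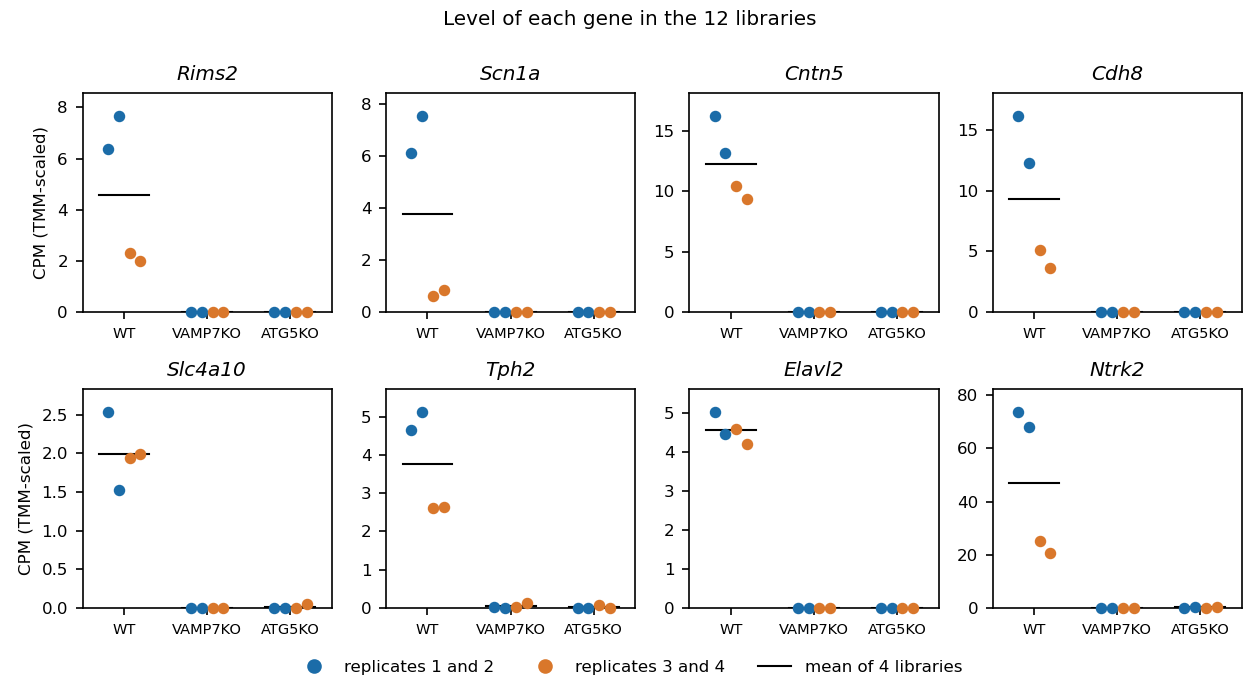
Level of each of the 8 genes in the 12 libraries, in TMM-scaled CPM on a linear axis that starts at 0 and differs between panels. Points are libraries, coloured by replicate pair, and lines are means of 4 libraries. WT points lie well above 0 in every panel, knockout points lie at or near 0, and for 6 genes the WT points of replicates 3 and 4 lie below those of replicates 1 and 2.

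Rims2, the vesicle release gene, gave 189, 221, 70 and 56 reads in WT replicates 1 to 4 and no read in any of the 8 knockout libraries. Its level in WT was 4.58 ± 2.86 CPM (SD, n = 4), which is at least 39.2-fold above VAMP7KO and at least 37.5-fold above ATG5KO when each knockout library is set at the floor of 3 reads. The 2 high and the 2 low WT libraries did not overlap. Scn1a, the sodium channel gene, gave 181, 217, 19 and 24 reads in WT and again none in either knockout. Its WT level was 3.78 ± 3.55 CPM, at least 32.3-fold above VAMP7KO and at least 30.9-fold above ATG5KO. The SD was nearly as large as the mean because replicates 3 and 4, at 0.624 and 0.856 CPM, stood far below replicates 1 and 2, at 6.11 and 7.51 CPM.

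The adhesion genes were the next in order of function. Cntn5, a contactin, gave 480, 380, 317 and 262 reads in WT and none in either knockout. Its WT level was 12.3 ± 3.07 CPM, at least 105-fold above VAMP7KO and at least 100.4-fold above ATG5KO. Cdh8, a cadherin of type II, gave 478, 356, 156 and 101 reads in WT, 0, 0, 1 and 0 in VAMP7KO and none in ATG5KO. Its WT level of 9.30 ± 5.94 CPM was at least 76.0-fold above ATG5KO. Against the single read in VAMP7KO the ratio was 971, with an exact 95% counting interval of 174 to 38368, so that its size is known only roughly.

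Slc4a10, the sodium and bicarbonate transporter gene, was the most evenly read together with Elavl2. It gave 75, 44, 59 and 56 reads in WT, none in VAMP7KO and 0, 0, 0 and 1 in ATG5KO. Its WT level was 2.0 ± 0.41 CPM, at least 17.1-fold above VAMP7KO, and the ratio to ATG5KO was 200 with an interval of 35.5 to 7929. Elavl2, the RNA-binding gene, gave 149, 129, 140 and 118 reads in WT and none in either knockout. Its WT level was 4.58 ± 0.344 CPM, at least 39.1-fold above VAMP7KO and at least 37.4-fold above ATG5KO.

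Tph2, the serotonin synthesis gene, gave 138, 148, 80 and 74 reads in WT, 1, 0, 1 and 3 in VAMP7KO and 0, 0, 2 and 0 in ATG5KO. Its WT level was 3.76 ± 1.32 CPM, and the ratio to VAMP7KO was 78.3 (33.3 to 242) and to ATG5KO 188 (51.7 to 1557). All 8 of its knockout libraries were at or under the floor. Ntrk2, the TrkB gene, gave 2181, 1964, 761 and 582 reads in WT, 0, 0, 0 and 1 in VAMP7KO and 3, 10, 4 and 4 in ATG5KO. Its WT level was 46.8 ± 27.8 CPM. The ratio to ATG5KO was 223 (146 to 361), and the ratio to the single read in VAMP7KO was 4882 (876 to 192860). These intervals and floors hold for counting error alone, because PCR copies of a molecule cannot be recognised in these reads.

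With a gene that had reads kept at its level or at the floor, whichever was higher, the median fold of WT over the knockout was 39.2 in VAMP7KO and 37.4 in ATG5KO over the 8 genes. The reads left in the knockouts were unevenly placed. Rims2, Scn1a, Cntn5 and Elavl2 had none in all 8 libraries, and Cdh8 and Slc4a10 had 1 each. Tph2 had 5 in VAMP7KO and 2 in ATG5KO, and Ntrk2 had 1 and 21.

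**Figure D2:**
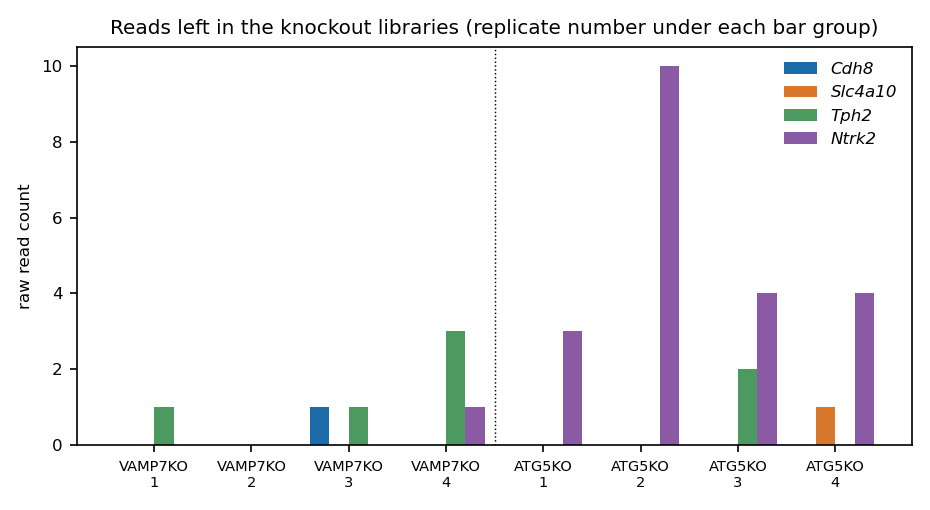
Raw read counts, on an axis that starts at 0, of the 4 genes with any read in the 8 knockout libraries, by line and replicate number. Ntrk2 has 3 to 10 reads in every ATG5KO library and 1 read in 1 VAMP7KO library, and no other gene exceeds 3 reads.

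The knockouts were then compared with each other, a difference that did not choose the genes although it shares libraries with the contrasts that did. Only 4 of the 8 had any read in either line and could differ there. Of these, Ntrk2 alone was called, with 21 reads in ATG5KO against 1 in VAMP7KO (edgeR quasi-likelihood test, adjusted p = 0.00442 over 13141 genes). Over all genes tested, 44.9% were called in this comparison, a share that the 8 cannot be read against, since all of them passed the filter through WT. Every ATG5KO library, at 0.139 to 0.347 CPM, was above every VAMP7KO library, at 0 to 0.0411 CPM. However, ATG5KO replicate 1, with 3 reads, lay at the floor, and replicates 3 and 4, with 4 reads each, lay just above it. The exact 2-sided permutation test over the libraries gave p = 0.0286, the smallest that 4 libraries against 4 allow. It shuffles the libraries freely and ignores their pairing by replicate number, so this p is not one within pairs. The ratio of ATG5KO to VAMP7KO was 21.9 with a counting interval of 3.52 to 904. The fitted log2 difference of VAMP7KO from ATG5KO, -3.91, rests on that single read: it was -5.75 without VAMP7KO replicate 4, which holds it, and -3.25 without VAMP7KO replicate 1. The level in ATG5KO was 0.434% of that in WT. For Cdh8, Slc4a10 and Tph2 the adjusted p was 0.368, 0.348 and 0.502, at counts too low to show a difference, and for the 4 genes with no read in either line no difference was detectable at this depth.

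Within WT, the 8 genes divided by replicate pair, and the knockout contrasts do not use that comparison. The division itself was first seen in values of these libraries, so its p-values are not independent of them. Of the 8 genes, 6 were lower in WT replicates 3 and 4 than in replicates 1 and 2 and none was higher, against 31.4% of all genes tested that were lower and 61.9% that changed in either direction. The share of genes that changed (6 of 8) is thus close to the background. All 6 were lower, while of the 8140 genes called over all genes tested 4129 were lower. The fibroblast markers given below went the same way, so the direction is not particular to the 8 genes. Since the 8 passed the filter through WT alone, these shares are a description and no evidence about them. The median log2 difference was -1.26 over the 8 genes and -0.01 over all 13141.

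Scn1a fell furthest, with a log2 difference of -3.20 (SE 0.312, adjusted p = 8.39e-07 in edgeR's quasi-likelihood test), which left 10.9% of its level in replicates 1 and 2. Only 1.89% of all genes tested had a difference as low or lower. Rims2 fell by 1.70 (SE 0.255, adjusted p = 5.39e-05), Cdh8 fell by 1.70 (SE 0.219, adjusted p = 8.59e-06) and Ntrk2 fell by 1.63 (SE 0.120, adjusted p = 5.09e-09). These 3 genes, of vesicle release, adhesion and neurotrophin signalling, kept between 30.6% and 32.3% of their level. Tph2 fell by 0.89 (SE 0.268, adjusted p = 0.00847) and Cntn5 fell by 0.57 (SE 0.170, adjusted p = 0.00991), to 53.8% and 67.3%.

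Elavl2 and Slc4a10 were not called. The log2 difference was -0.11 for Elavl2 (95% interval -0.62 to 0.41, adjusted p = 0.717) and -0.05 for Slc4a10 (-0.79 to 0.70, adjusted p = 0.921). The interval of Scn1a, -3.87 to -2.53, overlapped that of no other gene of the 8. Those of Rims2, Cdh8 and Ntrk2 overlapped each other, as did those of Tph2, Cntn5, Elavl2 and Slc4a10, and that of Tph2 also reached those of the first 3. The calls of Cntn5 and Tph2 rest on single libraries. The adjusted p of Cntn5 rose to 0.138 without WT replicate 1 and 0.0890 without WT replicate 4, and that of Tph2 to 0.0695 without WT replicate 2 and 0.0537 without WT replicate 3.

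**Figure D3:**
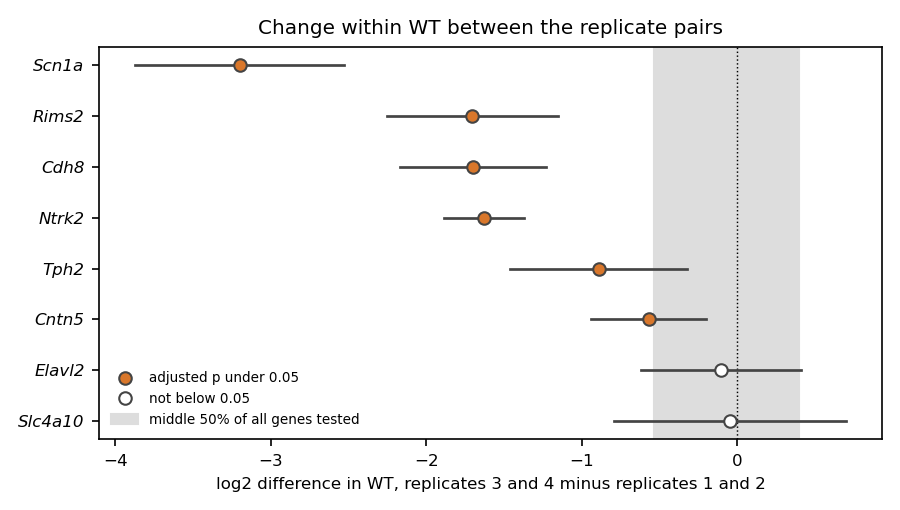
Log2 difference of WT replicates 3 and 4 from WT replicates 1 and 2 for each of the 8 genes, with 95% intervals, in which filled points have an adjusted p under 0.05 and the grey band holds the middle 50% of the differences of all genes tested (-0.54 to 0.40). Scn1a lies furthest left, 4 of the called genes lie wholly outside the band, and Elavl2 and Slc4a10 straddle 0.

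Markers of other cell types were compared over the same division, where 31.4% of all genes tested were lower and 61.9% changed in either direction. Of 9 fibroblast markers tested, 8 were lower in WT replicates 3 and 4 and none was higher, and their summed level went from 6903 to 7063 CPM in replicates 1 and 2 to 4915 to 4958 CPM in replicates 3 and 4. The kidney epithelium list summed to 824 to 894 CPM in WT replicates 1 and 2 and 1214 to 1216 CPM in replicates 3 and 4, with 2 of 7 genes higher and 1 lower. Muscle markers gave 4 lower and 1 higher of 8, and glia markers 2 lower and 1 higher of 5. In the kidney, muscle and glia lists the share that changed was thus near or under that of all genes. The part of these markers in the difference of the 8 genes was not tested. The neuron markers with a known identifier were Mapt, Nefh and Elavl4. Their sum was 27.7 to 30.1 CPM in WT replicates 1 and 2, 16.5 to 19.1 CPM in replicates 3 and 4, 27.5 to 38.0 CPM in VAMP7KO and 50.1 to 69.2 CPM in ATG5KO. These 3 did not move together. Mapt, which encodes the microtubule protein tau, made up most of the sum and was higher in both knockouts (21.2 CPM in WT, 32.0 in VAMP7KO and 56.1 in ATG5KO). Elavl4, a relative of Elavl2, had 3.98 CPM in WT replicates 1 and 2 and 0.271 in replicates 3 and 4, with 1 read in VAMP7KO and none in ATG5KO. Nefh, a neurofilament gene, had 3 reads in WT, 12 in VAMP7KO and 142 in ATG5KO.

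Other genes of the same pathways were taken from 8 lists that hold 178 further genes, of which 42 had a known identifier and 33 were tested. Symbols were known only for genes that the study had listed as changed on these libraries, so the share called is no evidence about the lists. Of the 33, 14 were lower and 7 higher in VAMP7KO than in WT, against 12.3% and 10.5% of all genes tested. In ATG5KO 9 were lower and 18 higher, against 22.7% and 23.6%. Their median log2 fold change was -0.61 in VAMP7KO and 1.57 in ATG5KO, and over all genes tested it was 0.00 and 0.01.

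**Figure D4:**
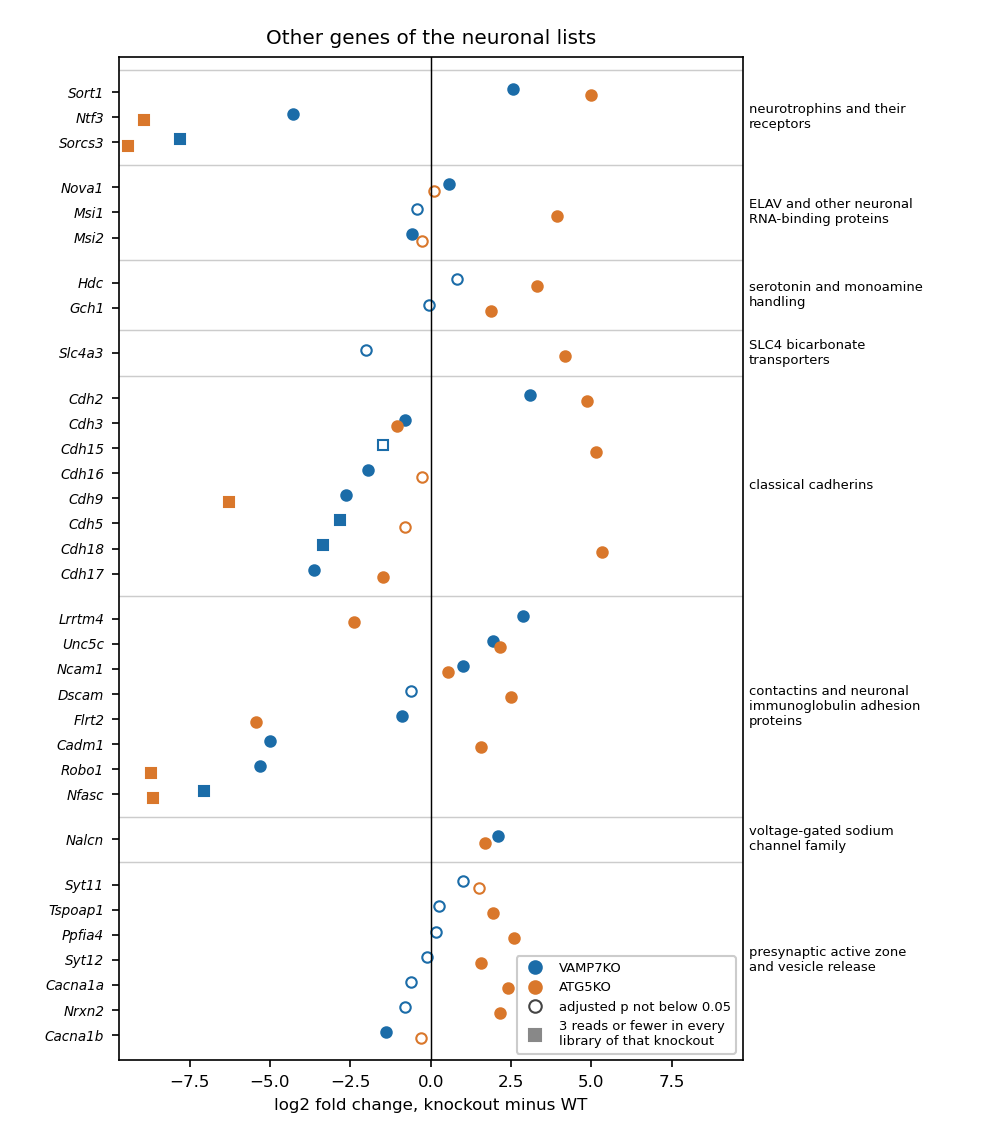
Log2 fold change against WT in VAMP7KO and ATG5KO of the 33 tested genes of the 8 neuronal lists, other than the 8 genes themselves, in which open symbols were not called, and squares are genes with 3 reads or fewer in every library of that knockout, whose fitted value depends on the prior count. Points lie on both sides of 0 in most lists, and Nfasc and Sorcs3 are squares far to the left in both lines.

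Among genes of vesicle release, 7 were tested beside Rims2. In VAMP7KO 1 was lower and none higher, and in ATG5KO none was lower and 5 were higher. Cacna1b, the pore of the N-type calcium channel, had a log2 fold change of -1.40 in VAMP7KO (SE 0.347, adjusted p = 0.0167). This call was lost at 0.0511 to 0.0599 without WT or VAMP7KO replicate 1 or 2, and at 0.102 without the replicate block. The other 6 ran from -0.81 (Nrxn2) to 1.0 (Syt11) in VAMP7KO and were not called. In ATG5KO Ppfia4 (liprin-alpha-4) rose by 2.59, Cacna1a (the P/Q-type calcium channel) by 2.40 and Nrxn2 (a neurexin) by 2.15 on the log2 scale. The 3 lowest there were Cacna1b at -0.31, Syt11 at 1.52 and Syt12 at 1.58, of which only Syt12 was called. Syt11 was called at 0.0266 without WT replicate 3 and 0.0276 without ATG5KO replicate 3. Of the sodium channel family only Nalcn, a leak channel, was tested beside Scn1a, and it rose by 2.10 in VAMP7KO and 1.68 in ATG5KO. Without the replicate block these calls of Nalcn were lost (adjusted p = 0.131 and 0.168). Most of its reads were in replicates 3 and 4, where it stood at 0.669 CPM in WT, 4.48 in VAMP7KO and 2.67 in ATG5KO, against 0.256, 0.493 and 0.561 CPM in replicates 1 and 2.

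The contactin and adhesion list gave 4 lower and 3 higher of 8 in VAMP7KO and 4 and 4 in ATG5KO. Nfasc, which encodes the axonal protein neurofascin, gave 78, 52, 45 and 44 reads in WT, 1 in VAMP7KO and none in ATG5KO, the pattern of the 8 genes. Robo1, a guidance receptor, went from 15.2 CPM in WT to 0.342 in VAMP7KO and 0.0320 in ATG5KO. Cadm1, an adhesion protein, split the lines, with 16.0 CPM in WT, 0.488 in VAMP7KO and 47.8 in ATG5KO. Flrt2 split them the other way, with log2 fold changes of -0.89 in VAMP7KO and -5.42 in ATG5KO. Its call in VAMP7KO was lost at 0.0523 to 0.0690 without WT replicate 1, 3 or 4 or VAMP7KO replicate 1 or 2. Without the replicate block that call was lost at 0.213. Of those that rose in VAMP7KO, Lrrtm4 gained 2.87, Unc5c 1.94 and Ncam1 1.01 on the log2 scale. In ATG5KO Dscam rose by 2.51, Unc5c by 2.16 and Cadm1 by 1.57. The call of Dscam was lost at 0.0523 to 0.0637 without WT replicate 4 or ATG5KO replicate 1, 3 or 4. It was also lost without the replicate block (0.0685). Lrrtm4, among the 4 lower in ATG5KO, had 26 reads in WT and 4 in ATG5KO, a log2 fold change of -2.39 (adjusted p = 0.0485) that ran from -5.57 to -1.99 with 1 library left out. Its call held in 4 of those 12 fits and was lost without the block (0.0597) and with only the 2 genotypes (0.0745).

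Of 8 cadherins beside Cdh8, 6 were lower and 1 higher in VAMP7KO, and 3 were lower and 3 higher in ATG5KO. Cdh9, a type II cadherin like Cdh8, was the nearest to it, with 180, 197, 67 and 66 reads in WT, 11 to 26 in VAMP7KO and 0 to 2 in ATG5KO. Cdh17, an intestinal and liver cadherin, fell by 3.63 in VAMP7KO, and within WT it fell by 3.88 from replicates 1 and 2 to replicates 3 and 4. Its pooled log2 fold change in ATG5KO was -1.49 (adjusted p = 0.0431), but it was lower there only in replicates 1 and 2 (79.4 CPM in WT and 12.6 in ATG5KO), and in replicates 3 and 4 the levels were 5.38 and 6.07 CPM. Its call in ATG5KO was lost at 0.153 to 0.171 without WT or ATG5KO replicate 1 or 2, at 0.0607 to 0.0655 without any 1 of the VAMP7KO replicates, at 0.136 with only the 2 genotypes compared and at 0.0805 without the replicate block. Cdh16, of kidney epithelium and among the 6, had an adjusted p of 0.0499 in VAMP7KO and kept its call in 2 of 12 fits with 1 library left out (0.145 without WT replicate 4). Its call was also lost without the replicate block (0.0976). Cdh18 gave 2 to 6 reads in WT, 1 in VAMP7KO in all and 89 to 224 in ATG5KO, and its call in VAMP7KO was lost at 0.0550 to 0.0590 without WT replicate 1 or VAMP7KO replicate 1 or 2. Cdh5, of blood vessel lining, gave 12 to 18 reads in WT and 1 to 3 in VAMP7KO, and was not called in ATG5KO (adjusted p = 0.120). Cdh2, the neural cadherin, rose by 3.10 in VAMP7KO and 4.87 in ATG5KO, and Cdh15 rose by 5.16 in ATG5KO. Cdh2 gave 1 to 2 reads per library in WT, 5 to 16 in VAMP7KO and 23 to 54 in ATG5KO. Cdh15 gave 0 to 3 reads per library in WT and 28 to 36 in ATG5KO. Both were at or under the floor of 3 reads in every WT library, so the size of these rises is known only roughly. Cdh3, of epithelia, fell by 0.79 in VAMP7KO, and in ATG5KO it fell by 1.05.

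The remaining lists were small. Slc4a3, an anion exchanger beside Slc4a10, rose by 4.16 in ATG5KO and had an adjusted p of 0.0643 in VAMP7KO, which was 0.0339 without VAMP7KO replicate 2. Gch1, which makes the cofactor of tryptophan hydroxylases such as TPH2, rose by 1.87 in ATG5KO and was not called in VAMP7KO (adjusted p = 0.918), and Hdc (histidine decarboxylase) rose by 3.30 in ATG5KO. Beside Elavl2, Msi1 rose by 3.94 in ATG5KO, Nova1 rose by 0.58 in VAMP7KO and Msi2 fell by 0.58 in VAMP7KO. Hdc gave 0 to 3 reads per library in WT and 10 to 21 in ATG5KO, and Msi1 gave 1 to 3 and 15 to 47. Every WT library was thus at or under the floor of 3 reads for both genes, and the size of their rises is known only roughly.

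The neurotrophin list held the pair most like Ntrk2 in function. Ntf3 encodes neurotrophin-3, a ligand of the Trk receptors, and gave 56, 61, 73 and 70 reads in WT, 2, 0, 6 and 4 in VAMP7KO and none in ATG5KO. Sorcs3, a receptor of the VPS10 family, gave 103, 101, 86 and 81 reads in WT, 1 in VAMP7KO and none in ATG5KO. Sort1, its relative sortilin, was higher in both lines, at 10.7 CPM in VAMP7KO and 57.0 CPM in ATG5KO against 1.77 CPM in WT. Ntf3 and Sorcs3 were not called within WT between the replicate pairs (adjusted p = 0.435 and 0.374), as Elavl2 and Slc4a10 were not, whereas Ntrk2 was. Over the 33 genes, 9 were lower and 5 higher in WT replicates 3 and 4. Of all genes tested 31.4% were lower and 61.9% changed in either direction, larger shares than among the 33.

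Finally, the genes with the most similar course over the 12 libraries were sought among 1141 genes with a known symbol and at least 1 CPM in WT, by Pearson's r of log2(CPM + 0.1). Since all 12 libraries enter, r is set mainly by the gap between WT and the knockouts and then by the replicate pairs. It is given with no test, over 12 points that share 3 lines and their depth. For Cntn5, Elavl2 and Slc4a10 the 2 genes were Zdhhc2, a palmitoyltransferase, and Sorcs3, with r of 0.992 to 0.9996. For Rims2 and Cdh8 the first was Ppargc1a, a transcriptional coactivator of mitochondrial genes (r = 0.9998 and 0.998), followed by Mctp2 (0.998) and Rtl8a (0.998). For Scn1a they were Cadm2, a synaptic adhesion protein (0.998), and Tox3 (0.997). Tph2 was nearest to Sult1b1 and Mob3b (both 0.990), and Ntrk2 to Birc2 (0.990) and Ptprc (0.988). Birc2 kept 44.4 CPM in VAMP7KO and 47.7 CPM in ATG5KO against 109 CPM in WT, so a high r here does not mean that a gene was lost.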

How the data were processed

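RNA was measured in 12 libraries, with 600 ng of total RNA each, a stranded mRNA kit and reads of 50 bases. The authors deposited raw read counts per gene of Ensembl release 110, made with htseq-count 0.13.5 from STAR 2.7.10b alignments to mRatBN7.2, after trimming in cutadapt 4.2 at Phred 20, a shortest length of 40 bases and removal of rRNA with bowtie 2.2.8. The strand setting of the counting is not given in the sources used here, so reads of antisense or near-identical genes could not be set apart.

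Samples were grouped by the genotype in their labels, and 1 separator that the header line lacked was put back between its neighbours. Symbols of 1976 genes came from the study's supplementary lists of changed genes. The 8 genes and the lists were chosen with earlier results of these data known. Counts were scaled by TMM, genes were filtered with filterByExpr by genotype (13141 kept), and the quasi-likelihood F test of edgeR 4.0.16 (with limma 3.58.1 in R 4.3.3) was run on all 12 libraries with Benjamini-Hochberg adjustment and a threshold of 0.05. Genotypes were compared with the replicate number as a block, since the study adjusted for a batch that the labels do not name, and WT replicate pairs with a mean for each genotype and pair. The SE is the log2 difference over the square root of F. The floor was 3 counts per library, and an at-least fold divides the mean WT level by the mean CPM of that floor. Where a knockout held any read, the ratio of summed counts per scaled depth is given instead, with an exact (Clopper-Pearson) 95% interval. Depths ran from 21090858 to 31525111 counts.

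Deviations from the genotype means correlated at 0.562 to 0.681 between libraries of the same number, at 0.529 to 0.677 between different numbers of the same pair and at -0.682 to -0.543 across pairs. The numbers therefore pair the libraries, mostly through the replicate pairs. The alternatives were size factors of DESeq2 1.42.0 in edgeR, the Wald test of DESeq2, no filter, no or another block, fewer libraries in the fit, and each library left out. Genes named are the 8, the tested list genes (the 3 highest and 3 lowest where over 6 were tested), the highest gene of each marker list, the 2 genes most like each of the 8, Vamp7 and neighbours in the genome. Promoters were read from RefSeq (GRCr8). Other steps used scipy 1.17.1, numpy 2.4.6, pandas 2.3.3 and matplotlib 3.10.9 in Python 3.11.15.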

Additional observations from a re-analysis of the deposited data

Results flagged for a closer look

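The loss of Ntrk2 differed between the knockouts by the test of the difference itself, with 21 reads in ATG5KO and 1 in VAMP7KO, a ratio of 21.9 (counting interval 3.52 to 904). Both lines stayed under 1% of the WT level.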

How the results depend on the processing

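The count of 6 genes lower in WT replicates 3 and 4 was 5 to 6 with 1 library left out and 6 under the other alternatives. Ntrk2 was the 1 gene called between the knockouts throughout, with an adjusted p of 0.0313 without the replicate block. Over the 33 list genes, leaving out 1 library gave 10 to 14 lower and 7 to 7 higher in VAMP7KO, and 7 to 10 lower and 17 to 19 higher in ATG5KO. Testing every gene with at least 1 count raised the number lower in ATG5KO from 9 to 15, of which 6 had not passed the filter. A floor of 1 count in place of 3 raised the median fold to 118 in VAMP7KO and 112 in ATG5KO, as its construction implies. Leaving out a WT replicate gave medians of 35.0 to 43.6 and 33.4 to 41.7. Slc4a10 changed sign within WT without WT replicate 1 (log2 differences from -0.36 to 0.37 with 1 library left out, adjusted p = 0.508 where positive). Of the list genes not called, Cdh16 in ATG5KO changed sign without WT replicate 3 (0.18), WT replicate 4 (0.16), ATG5KO replicate 3 (0.064) or ATG5KO replicate 4 (0.027), with a lowest value of -0.94. In VAMP7KO Gch1 changed sign without WT replicate 1 (0.0035), WT replicate 4 (0.047) or VAMP7KO replicate 1 (0.13; lowest -0.16), Ppfia4 without WT replicate 4 (-0.043; highest 0.32), and Syt12 without WT replicate 3 (0.011) or VAMP7KO replicate 3 (0.044; lowest -0.32). The cause was not tested. With no replicate block, 11 of the list genes were lower and 6 higher in VAMP7KO, and 7 lower and 15 higher in ATG5KO. At this depth a gene below 0.0952 to 0.142 CPM in a library could not be told from 0.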

Other observations

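Of the 42 list genes with a known identifier, 9 did not pass the filter on low counts, and they are given here after their values were seen. Elavl4, Cadm2 and Robo2 were, like the 8 genes, read almost only in WT, with every WT library above every knockout library. Elavl4 gave 114, 119, 10 and 6 reads in WT replicates 1 to 4, Cadm2 gave 72, 59, 8 and 11 and Robo2 gave 39, 19, 9 and 4, and in the 8 knockout libraries the 3 genes gave 1 read, of Elavl4. Scn3a, a relative of Scn1a, gave 61, 48, 2 and 1 reads in WT, 4, 6, 1 and 0 in VAMP7KO and none in ATG5KO, so its WT and VAMP7KO libraries overlapped. Slc6a2, the noradrenaline transporter gene, had 43 reads in WT, 9 in VAMP7KO and 5 in ATG5KO, also with no overlap between WT and knockout libraries. The share of all genes with no such overlap was not counted. These genes had known symbols only because the study listed them as changed, so the lack of overlap is a description alone. The other 4 took other courses. Svop gave 0, 2, 26 and 13 reads in WT, 3 in VAMP7KO in all and 10 in ATG5KO, Syt2 had 19, 21 and 82 in the 3 genotypes in that order, Cdh7 had 5, 75 and 0, and Srrm3 had 28, 22 and 0.

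Of the genes next to the 8 in the order of protein-coding genes (RefSeq, GRCr8), 2 had a known identifier. Ttc21b, beside Scn1a, kept 24.0 CPM in WT, 12.3 in VAMP7KO and 15.4 in ATG5KO. Dpp4, beside Slc4a10, had 6.80, 1.61 and 8.36 CPM, and in VAMP7KO it stood at 0.487 CPM in replicates 1 and 2 and 2.73 in replicates 3 and 4. Both were still read in every library.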
